A study of Arabidopsis thaliana with 4 samples.

Results

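Carbon starvation and dark-inducible genes are 10 Arabidopsis thaliana genes chosen by AGI identifier, out of 33602 gene IDs with a value in every library. They are ASN1, SEN1, BGLU30, DIN3, DIN4, DIN9, DIN10, PRODH1, DRM1 and BZIP1. All 10 were found in each file. They were compared between lux-6, a mutant of the evening complex gene LUX that the labels give as lux -/- in the Col-0 ecotype, and wild-type Col-0, with 2 whole-seedling RNA-seq libraries of each genotype. Seedlings of both genotypes were 10 days old, had grown at 22 °C under what the labels call LD conditions on MS medium with 3% sucrose, and were harvested at ZT12, 12 h after zeitgeber zero. The series describes the libraries as biological replicates and uses a single lux allele. It does not say how many seedlings went into a library. The p-values set the genotype difference against the spread between libraries, estimated in part from all tested genes. They do not speak for single seedlings.

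Plant cells that run short of sugar, as in prolonged darkness, switch on genes that free carbon from amino acids, cell walls and stored sugars and that park the released nitrogen in asparagine. The kinase SnRK1 drives much of this programme, in part through bZIP transcription factors of groups C and S1, and supplied sugar shuts it down. Several members carry the name DIN, for dark-inducible, because they were isolated as transcripts that build up in darkened or sugar-starved leaves.

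Expression is given as FPKM, fragments scaled to gene length and library size, as the authors deposited it. Library totals worked back from the values lay between 10735709 and 11198704 fragments. LUX (AT3G46640) itself had 34.8 and 35.3 FPKM in the lux-6 pair, against 57.0 and 73.9 FPKM in Col-0 replicates 1 and 2, a difference that did not pass the test over all genes (limma adjusted p = 0.187). Col-0 replicate 2 stood apart, with 3.09% of its FPKM total from plastid genes against 0.0525% to 0.0698% in the other 3 libraries, and its log2 values correlated with those of Col-0 replicate 1 at r = 0.909 across genes, against 0.984 between the lux-6 libraries. By the same measure the first Col-0 library was closer to both mutant libraries (r = 0.955 and 0.957) than to its own replicate. Every Col-0 mean below includes replicate 2. The seed markers SESA1, SESA3, CRA1, OLEO1 and CRU2 summed to 1129 and 1138 FPKM in lux-6 and to 158 and 13.6 FPKM in Col-0. Of these, 5 of 5 were higher in both lux-6 libraries, against 26.1% of the 19592 genes tested below. SESA3 and CRU2 reached the mean needed for that test through their lux-6 values alone, so the count of 5 carries that filter. The root markers PYK10, TIP2-3, COBL9, EXPA7 and BGLU22 summed to 2677 and 3059 FPKM in lux-6 and to 3034 and 1502 FPKM in Col-0. PYK10 gave most of that sum. TIP2-3 was lower in both lux-6 libraries and the other root markers overlapped. The shoot markers RBCS1A, LHCB1.3, RCA and PSBO1 summed to 15972 and 15030 FPKM in lux-6 and to 17943 and 26325 FPKM in Col-0. RBCS1A gave most of that sum. RBCS1A and PSBO1 were lower in both lux-6 libraries, RCA was higher in both and LHCB1.3 overlapped. The 4 floral markers summed to under 2 FPKM in every library. The part of seed marker differences in the results on the members was not tested. In whole seedlings, more cells that express a gene and more RNA per cell cannot be told apart.

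ASN1 rose in lux-6 and was the 1 member past the test over all genes, and 0 members fell. Of 19592 tested genes 0.286% were called higher and 0.0051% lower, 0.291% in all. SEN1 and DIN10 had the next largest differences and did not pass. For DRM1, DIN4, PRODH1 and DIN3 the lux-6 pair also lay wholly above the Col-0 pair, with smaller differences that did not pass. The same was true of 26.1% of all tested genes for the position of the pairs. BGLU30 and DIN9 overlapped between the genotypes, and BZIP1 was listed at 0 in all 4 libraries. The test was limma with a mean-variance trend on log2(FPKM + 1), with genotype as the only term, over genes whose mean reached 1 FPKM, adjusted by Benjamini-Hochberg at a threshold of 0.05. BZIP1 was below that mean and was not tested. ASN1 was above it through its lux-6 values alone, so the 9 tested members are not all members and their counts carry that filter.

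ASN1 (AT3G47340) encodes a glutamine-dependent asparagine synthetase, the enzyme that loads nitrogen onto aspartate for transport when carbon is scarce. The level was 44.95 and 29.25 FPKM in the lux-6 pair (replicate 1, then 2), against 1.32 and 0.225 FPKM in Col-0 replicates 1 and 2. Both lux-6 libraries were far above both Col-0 libraries, and the Col-0 values rested on an estimated 40 and 7 fragments. The means were 37.1 ± 11.1 FPKM in lux-6 and 0.773 ± 0.775 FPKM in Col-0 (SD, n = 2 each), a ratio of 48.0. The fitted log2 fold change, on log2(FPKM + 1) and so smaller than that ratio, was 4.47 ± 0.40 (standard error, limma adjusted p = 0.0453). Only 10 of the tested genes had a larger positive log2 fold change. With limma-voom on fragments worked back from FPKM, which adds no pseudocount of 1 FPKM, the log2 fold change was 5.997, the adjusted p was 0.0578 and the call was lost. Leaving out either lux-6 library, replicate 1 or 2, ended it too (adjusted p = 0.443 and 0.414), as did a pseudocount of 0.1 (0.0958) and no filter on low values (0.109), fits in which no gene passed. Without Col-0 replicate 2 the log2 fold change was 4.01.

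SEN1 (AT4G35770), also known as DIN1, encodes a rhodanese-like protein and is a widely used marker of darkened and senescing leaves. It was at 110.3 and 99.1 FPKM in lux-6, against 8.14 and 2.30 FPKM in Col-0. The lux-6 libraries lay close together and far above the Col-0 libraries, which rested on 87 and 25 fragments. The log2 fold change of 4.26 ± 0.50 (standard error) narrowly missed the threshold (limma adjusted p = 0.0626) and passed with limma-voom on fragments (adjusted p = 0.0428). Without Col-0 replicate 2 it was 3.53. ASN1 and SEN1 ranked 11 and 13 from the top among tested genes.

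**Figure D1:**
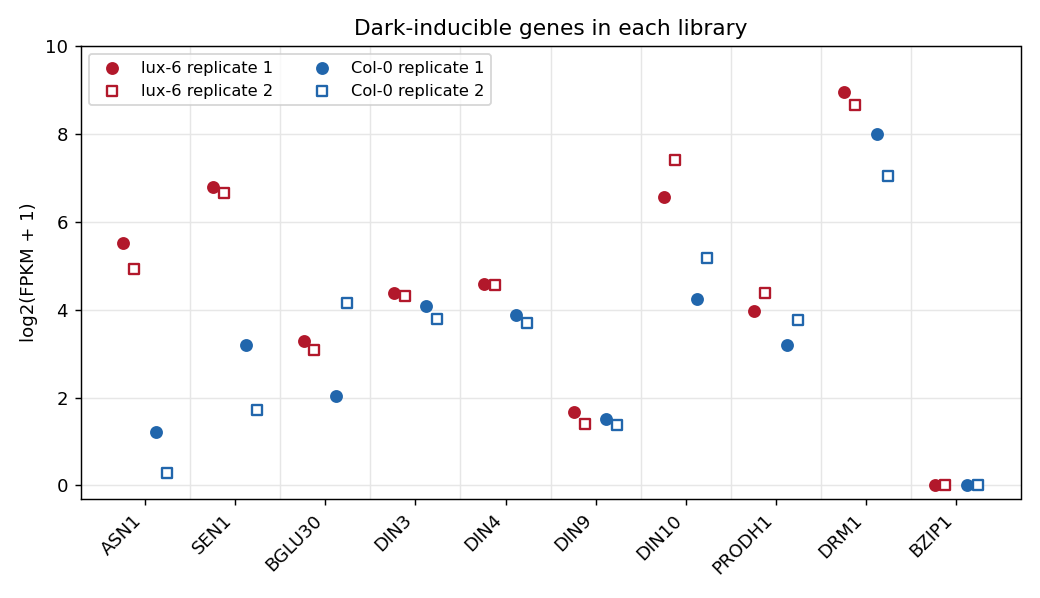
The 10 genes in each library, as log2(FPKM + 1), with lux-6 in red to the left and Col-0 in blue to the right of each gene, and replicate 1 as filled circles and replicate 2 as open squares. ASN1, SEN1 and DIN10 separate widely by genotype, both Col-0 libraries straddle the lux-6 pair for BGLU30, and BZIP1 lies at 0.

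The stretches before the gene starts of the 3 members with the largest differences are shown beside that of PRODH1, a known bZIP target with a smaller difference, so that the letters can be compared. Windows of 250 bases before the annotated start were read from the RefSeq genome and annotation of TAIR10.1, and stretches covered by another annotated gene were left out of what is printed. Capitals mark exact matches on either strand to the motifs searched. ACGT is the bZIP core, and it lies within the G-box, whose letters are CACGTG. The proline-responsive element is ACTCAT and appears reversed and complemented in PRODH1. A sugar-response element known from rice amylase genes was searched as TATCCA. The ASN1 stretch is chr3:17441568-17441681 on the minus strand, 114 bases from -250 to -137 relative to the start, and the next 136 bases belong also to AT3G47341. The SEN1 stretch is chr4:16944678-16944877 on the plus strand, the DIN10 stretch is chr5:6833314-6833563 on the plus strand, and the PRODH1 stretch is chr3:12451557-12451806 on the minus strand.
ASN1: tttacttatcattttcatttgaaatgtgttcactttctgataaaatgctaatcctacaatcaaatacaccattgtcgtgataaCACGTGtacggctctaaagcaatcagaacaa
SEN1: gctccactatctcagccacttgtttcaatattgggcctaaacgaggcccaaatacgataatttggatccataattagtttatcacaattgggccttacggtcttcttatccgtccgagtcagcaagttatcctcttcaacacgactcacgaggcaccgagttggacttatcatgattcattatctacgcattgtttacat
DIN10: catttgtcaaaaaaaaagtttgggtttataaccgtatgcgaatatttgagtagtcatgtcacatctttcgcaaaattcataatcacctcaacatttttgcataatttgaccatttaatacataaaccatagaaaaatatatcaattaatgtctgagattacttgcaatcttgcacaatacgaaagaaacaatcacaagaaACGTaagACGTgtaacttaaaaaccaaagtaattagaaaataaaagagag
PRODH1: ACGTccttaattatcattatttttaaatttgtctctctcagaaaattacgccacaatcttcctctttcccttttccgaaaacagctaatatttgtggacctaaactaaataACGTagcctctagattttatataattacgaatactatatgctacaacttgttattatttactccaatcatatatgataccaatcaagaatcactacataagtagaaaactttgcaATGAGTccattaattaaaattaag

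The ASN1 window held a G-box that begins at -167, and a TATCCA at -101 in the unprinted part. The DIN10 window held ACGT at -50 and -43, the PRODH1 window ACGT at -250 and -139 with ACTCAT at -24, and the SEN1 window none of the motifs searched. Among the 10 members ACGT was found in 4, against 44.1% of 27443 nuclear protein-coding windows of the same length, CACGTG in 1 (6.49% of windows), ACTCAT in 3 (12.3%) and TATCCA in 2 (13.6%). Letters bound by LUX were found in 2 members, GATACG in DIN3 at -88 (4.595% of windows) and GATTCG in BZIP1 at -122 (7.88%), and the evening element core AATATCT in none (10.0%). These matches describe the letters alone.

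DIN10 (AT5G20250) encodes a member of the raffinose synthase family, which acts on galactose-containing storage sugars. It was at 94.2 and 167 FPKM in lux-6, against 17.8 and 35.0 FPKM in Col-0. The groups did not overlap, and in both genotypes replicate 2 was the higher library. The means were 131 ± 51.7 FPKM in lux-6 and 26.4 ± 12.1 FPKM in Col-0 (SD, n = 2 each). The fitted log2 fold change was 2.28 ± 0.43 (standard error, limma adjusted p = 0.140). Leaving out Col-0 replicate 2 gave 2.75.

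DIN9 (AT1G67070) encodes a phosphomannose isomerase, which links mannose to glycolytic sugar phosphates. It was low everywhere, at 2.19 and 1.65 FPKM in lux-6 and at 1.87 and 1.58 FPKM in Col-0, from 31 to 42 fragments a library. The genotypes overlapped and the log2 fold change was 0.10, with a 95% interval from -0.60 to 0.79. BGLU30 (AT3G60140), also called DIN2, encodes a beta-glucosidase that releases glucose from conjugates. It was at 8.74 and 7.53 FPKM in lux-6, against 3.10 and 16.9 FPKM in Col-0. The lux-6 values sat between the Col-0 values, and the log2 fold change of 0.09 had an interval from -1.73 to 1.92. It was 1.15 without Col-0 replicate 2 and turned to -0.97 without Col-0 replicate 1, so its sign depended on which Col-0 library was kept. Without lux-6 replicate 1 it was -0.0046.

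DIN3 (AT3G06850) and DIN4 (AT3G13450) encode the E2 and E1 beta subunits of the mitochondrial branched-chain keto acid dehydrogenase, which burns leucine, isoleucine and valine carbon. DIN4 was at 22.8 and 22.7 FPKM in lux-6, against 13.7 and 11.9 FPKM in Col-0, and DIN3 at 19.8 and 18.9 FPKM in lux-6, against 15.96 and 12.7 FPKM in Col-0. Neither gene overlapped between genotypes. The log2 fold changes were 0.79 ± 0.17 for DIN4 and 0.42 ± 0.19 for DIN3 (standard errors; limma adjusted p = 0.180 and 0.462). For DIN3 it was 0.26 with Col-0 replicate 2 left out. The ratio of DIN4 to DIN3 FPKM was 1.15 and 1.21 in lux-6 and 0.857 and 0.935 in Col-0, where 2 libraries against 2 allow no exact permutation p under 0.333.

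PRODH1 (AT3G30775) encodes proline dehydrogenase, which starts proline oxidation in mitochondria. It was at 14.6 and 20.0 FPKM in lux-6, against 8.22 and 12.6 FPKM in Col-0, with replicate 2 the higher in both genotypes and a narrow gap between them. The log2 fold change was 0.69 ± 0.28 (standard error; limma adjusted p = 0.428), and 0.41 with Col-0 replicate 1 left out. DRM1 (AT1G28330) encodes a dormancy-associated protein, of a family first described in dormant buds of pea. It was the most abundant member, at 492 and 403 FPKM in lux-6, against 255 and 131 FPKM in Col-0. Its log2 fold change of 1.28 ± 0.37 did not pass (standard error; limma adjusted p = 0.297) and was 0.80 without Col-0 replicate 2.

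BZIP1 (AT5G49450) encodes an S1-group bZIP factor that responds to sugar starvation and acts on ASN1 and PRODH1. It was listed at 0 in all 4 libraries. The other S1 genes BZIP2, BZIP11 and BZIP53 were listed at 0 too, and BZIP44 had 1 fragment in Col-0 replicate 2 alone. An ID numbered next to each of these 5 genes, such as AT5G49448 for BZIP1, has no RefSeq entry here and was also listed at 0 throughout. The C-group genes BZIP9, BZIP10, BZIP25 and BZIP63 averaged 36.7, 36.2, 41.5 and 22.4 FPKM in lux-6, against 37.2, 32.95, 36.3 and 10.8 FPKM in Col-0. Whether the 0s of BZIP1 and its S1 relatives come from how reads of neighbouring or overlapping IDs were counted was not tested, so these genes are described only as listed at 0.

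Over the 9 tested members the log2 fold changes ran from 0.09 to 4.47, with a median of 0.79 beside 0.05 for all tested genes. All were positive, but the 95% intervals of BGLU30, DIN9, DIN3 and PRODH1 spanned 0. By mean FPKM BGLU30 was lower in lux-6 (8.14 against 9.98 FPKM in Col-0). The signs of BGLU30 and DIN9 changed in some fits with 1 library left out. Both lux-6 libraries exceeded both Col-0 libraries for 7 of the 9 tested members, against 26.1% of all tested genes, and 2 overlapped. At an unadjusted p under 0.05 there were 5 higher and 0 lower, against 9.18% and 3.1% of all tested genes. The members' median was 0.97 with Col-0 replicate 2 left out and 0.88 with Col-0 replicate 1 left out. Members called higher numbered 1 at a mean of 5 FPKM or more (0.631% of all tested genes), 1 with median-of-ratios scaling (0.485%), 1 with organelle genes removed (0.488%) and 1 with limma-voom (0.447%). There were 3 with the replicate block (1.69%), 3 when Col-0 replicate 2 was left out (3.47%) and 6 when Col-0 replicate 1 was (21.7%). In the Col-0 pair itself the members differed in both directions, from -1.47 for SEN1 to 2.12 for BGLU30 (replicate 2 minus replicate 1, log2), with a median of -0.19 beside -0.14 for all tested genes.

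**Figure D2:**
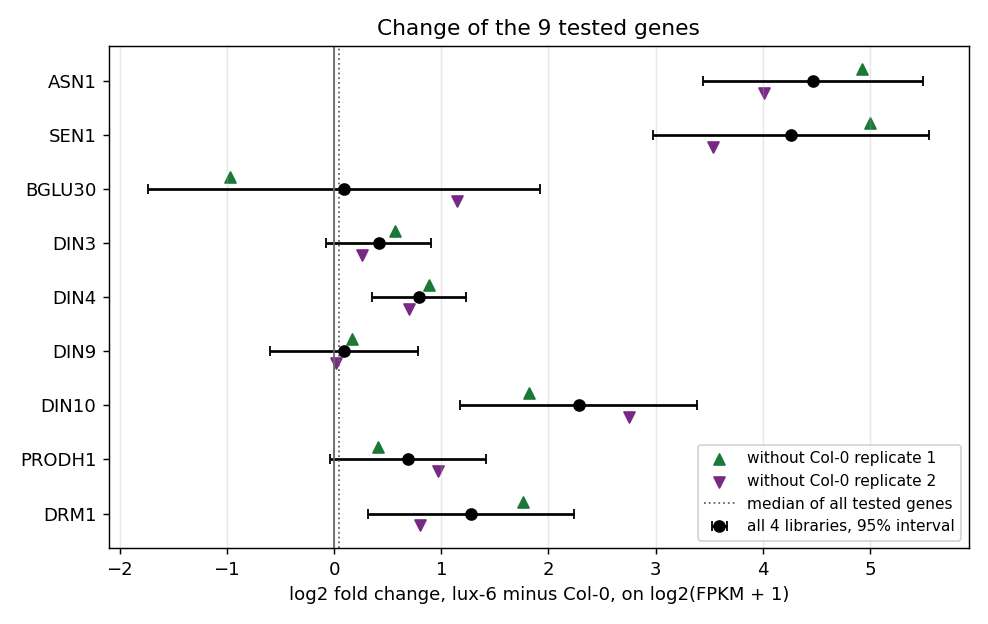
Log2 fold change of lux-6 minus Col-0 on log2(FPKM + 1) for the 9 tested genes, with black points and 95% intervals from limma on all 4 libraries, and triangles for fits without 1 Col-0 library. ASN1 (4.47), SEN1 (4.26) and DIN10 (2.28) lie well to the right under each fit, while BGLU30 changes side with the Col-0 library left out.

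The order of the levels differed between genotypes. In lux-6 the order by mean FPKM was DRM1 (447), DIN10 (131), SEN1 (105), ASN1 (37.1), DIN4 (22.8), DIN3 (19.3), PRODH1 (17.3), BGLU30 (8.14) and DIN9 (1.92). Only DIN10 with SEN1 and DIN3 with PRODH1 overlapped in their ranges among neighbours. In Col-0 it was DRM1 (193), DIN10 (26.4), DIN3 (14.3), DIN4 (12.8), PRODH1 (10.4), BGLU30 (9.98), SEN1 (5.22), DIN9 (1.72) and ASN1 (0.773). There each gene from DIN3 to BGLU30 overlapped with the next, and SEN1 did not overlap with DIN9. ASN1 was thus the fourth most abundant member in lux-6 and the lowest member above 0 in Col-0. The 10 members summed to 810 and 769 FPKM in lux-6, against 325 and 224 FPKM in Col-0, and DRM1 gave 52.4% to 78.5% of the sum in each library.

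Among 11 homologues of the members, no gene passed the test. At an unadjusted p under 0.05, 3 of 9 tested were higher and 1 lower, against 9.18% and 3.1% of all tested genes. The limma-voom fit also called none. Of the other asparagine synthetase genes, ASN2 was at 154 and 121 FPKM in lux-6 and at 170 and 187 FPKM in Col-0, and ASN3 at 15.5 and 16.7 FPKM in lux-6 and 16.5 and 18.1 FPKM in Col-0. ASN1 therefore made up 21.0% and 17.5% of the summed FPKM of the 3 synthetase genes in lux-6, against 0.705% and 0.110% in Col-0. PMI1, the other phosphomannose isomerase gene, was at 32.3 and 32.9 FPKM in lux-6, against 46.2 and 54.7 FPKM in Col-0 (log2 fold change -0.61 ± 0.17, standard error; adjusted p = 0.279).

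DRM2 (AT2G33830), the homologue of DRM1, was at 923 and 782 FPKM in lux-6 and at 456 and 281 FPKM in Col-0, a log2 fold change of 1.24 next to 1.28 for DRM1. Of the raffinose synthase family, RS2 had 82.2 and 87.0 FPKM in lux-6, against 34.7 and 50.3 FPKM in Col-0 (log2 fold change 0.9998, limma adjusted p = 0.197). RS5 overlapped between genotypes. The beta-glucosidase gene BGLU28 was at 11.3 and 10.6 FPKM in lux-6 and 5.49 and 3.98 FPKM in Col-0 (log2 fold change 1.07, limma adjusted p = 0.166). Of the sulfurtransferase genes related to SEN1, STR16 averaged 455 ± 63.2 FPKM in lux-6 and 272 ± 147 FPKM in Col-0 (SD, n = 2 each), with a log2 fold change of 0.85 that was 0.27 with Col-0 replicate 2 left out, and STR18 overlapped. The median over the tested homologues was 0.67, and with Col-0 replicate 2 left out it was -0.07.

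**Figure D3:**
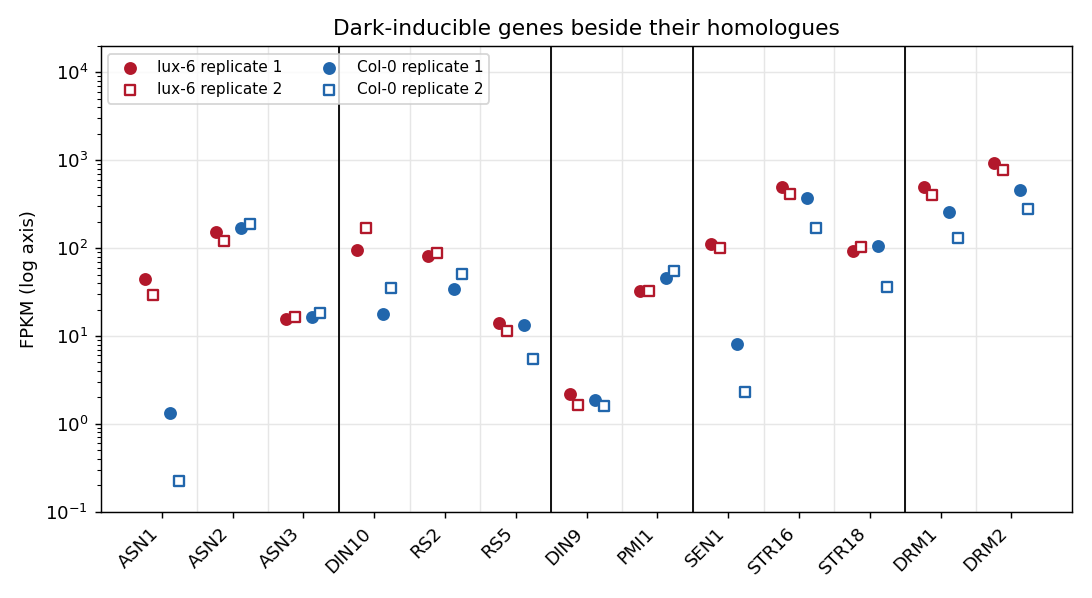
FPKM on a log axis for ASN1, DIN10, DIN9, SEN1 and DRM1 beside their homologues, with families separated by vertical lines, lux-6 in red left of Col-0 in blue, and replicate 1 as circles and replicate 2 as squares. ASN2 lies above ASN1 in every library, while DRM1 and DRM2 show the same order of libraries.

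Of 12 other genes that sugar represses, all tested, 4 rose in lux-6, 0 fell and 8 did not pass, against the 0.286% of all tested genes called higher. The list was drawn up from textbook knowledge with earlier results on these libraries in view. SEN5 (AT3G15450), a SnRK1 marker gene, was at 450 and 360 FPKM in lux-6, against 46.7 and 36.1 FPKM in Col-0 (log2 fold change 3.26 ± 0.22, standard error; limma adjusted p = 0.0330). BXL1 (AT5G49360), a beta-xylosidase of the cell wall, was at 118 and 126 FPKM in lux-6, against 18.8 and 13.2 FPKM in Col-0 (log2 fold change 2.87). STP1 (AT1G11260), a hexose transporter, was at 75.6 and 73.2 FPKM in lux-6, against 13.8 and 10.8 FPKM in Col-0 (log2 fold change 2.51). TPS8 (AT1G70290), of the trehalose-6-phosphate synthase family, was at 80.6 and 85.5 FPKM in lux-6 and at 16.05 and 16.002 FPKM in Col-0 (log2 fold change 2.30), and BXL1, STP1 and TPS8 each had an adjusted p of 0.0330.

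In the Col-0 pair, replicate 2 minus replicate 1 (log2) was -0.36 for SEN5, -0.48 for BXL1, -0.32 for STP1 and -0.0042 for TPS8. These 4 genes also passed with limma-voom (adjusted p = 0.0368 each). All 4 calls were lost at a pseudocount of 0.1 (limma adjusted p = 0.0526 each), with no filter on low values (0.0865 each) and with either lux-6 library left out (0.413 to 0.482). Leaving out Col-0 replicate 2, their log2 fold changes were 3.08, 2.63, 2.35 and 2.30. TPS11 missed the threshold by little (log2 fold change 2.13, limma adjusted p = 0.0501) and passed with limma-voom (adjusted p = 0.0383). FLZ6 lay on the other side, at 148 and 137 FPKM in lux-6 and 205 and 194 FPKM in Col-0, and FLZ10 overlapped. The list's median was 1.91 and was 1.66 without Col-0 replicate 2.

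**Figure D4:**
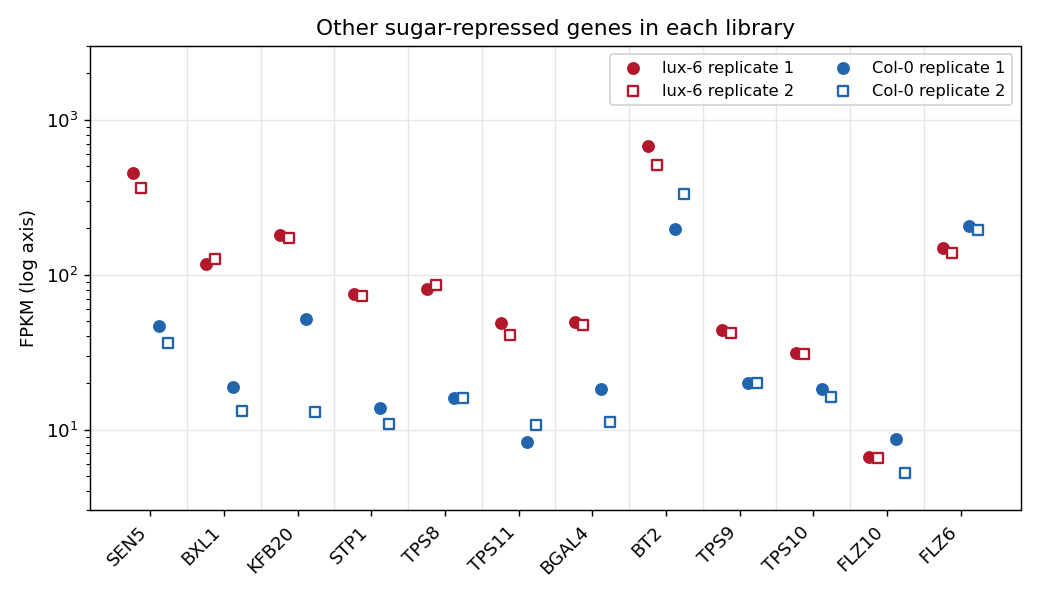
FPKM on a log axis of the 12 other sugar-repressed genes, ordered by fold change, with lux-6 in red left of Col-0 in blue, and replicate 1 as circles and replicate 2 as squares. For 10 of the 12 genes both lux-6 libraries lie above both Col-0 libraries, against 26.1% of all tested genes. FLZ6 is below, as are 22.8% of all tested genes.

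Genes that sugar induces had no called member of 8 in limma or limma-voom. At an unadjusted p under 0.05, 2 were higher and 1 lower, against 9.18% and 3.1% of all tested genes. BAM5, a beta-amylase gene, was at 12.8 and 20.8 FPKM in lux-6, against 2.04 and 1.42 FPKM in Col-0 (log2 fold change 2.68, limma adjusted p = 0.0575). GPT2, a glucose-phosphate transporter gene of plastids, was at 10.5 and 8.49 FPKM in lux-6, against 4.16 and 3.36 FPKM in Col-0 (log2 fold change 1.14, adjusted p = 0.151). CHS, DFR and PAP1 of the flavonoid pathway had log2 fold changes of -0.58, -0.64 and -1.24. With Col-0 replicate 2 left out these were -0.33, -0.30 and -1.16. The list had values in both directions and a median of -0.17.

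The remaining steps around the members had no called gene in limma or limma-voom. Among 18 other genes of branched-chain amino acid breakdown, 3 were higher and 0 lower at an unadjusted p under 0.05, against 9.18% and 3.1% of all tested genes. The median log2 fold change of the 18 was 0.04. MCCA, a subunit of methylcrotonyl-CoA carboxylase in leucine breakdown, averaged 21.7 ± 0.230 FPKM in lux-6 and 10.9 ± 2.03 FPKM in Col-0, and BCAT2, a branched-chain aminotransferase, 6.38 ± 0.758 FPKM in lux-6 and 1.51 ± 1.53 FPKM in Col-0 (SD, n = 2 each). BCE1A1, for an E1 alpha subunit of the dehydrogenase of DIN3 and DIN4, was at 29.0 and 21.9 FPKM in lux-6, against 18.6 and 11.5 FPKM in Col-0. Other subunit genes of that enzyme did not share this. BCE1A2 was lower in both lux-6 libraries, at 4.73 and 3.80 FPKM, against 4.97 and 5.79 FPKM in Col-0, and BCDHB1 overlapped. The log2 fold changes of BCAT2 and BCE1A1, 1.70 and 0.74, were 1.04 and 0.42 with Col-0 replicate 2 left out.

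Among 11 other asparagine and proline genes, 3 were higher and 0 lower at an unadjusted p under 0.05, against 9.18% and 3.1% of all tested genes. GDH2, a glutamate dehydrogenase gene, averaged 160 ± 3.79 FPKM in lux-6 and 89.7 ± 26.5 FPKM in Col-0, and GDH1 50.2 ± 2.34 FPKM in lux-6 and 32.0 ± 9.99 FPKM in Col-0 (SD, n = 2 each). Their log2 fold changes, 0.86 and 0.67, were 0.56 and 0.35 with Col-0 replicate 2 left out. P5CS1, which makes proline, was at 310 and 230 FPKM in lux-6, against 188 and 95.1 FPKM in Col-0, a log2 fold change of 0.99 that was 0.51 with Col-0 replicate 2 left out. P5CDH, which acts after PRODH1 in proline breakdown, had -0.03. Of 13 SnRK1 and bZIP genes, 9 were tested. At an unadjusted p under 0.05, 2 were higher and 0 lower, against 9.18% and 3.1% of all tested genes. KIN10, a catalytic subunit of SnRK1, was at 27.1 and 25.8 FPKM in lux-6 and 32.0 and 30.6 FPKM in Col-0. KINB1 had a log2 fold change of 0.77 and BZIP63 of 0.998 (limma adjusted p = 0.262 and 0.134).

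**Figure D5:**
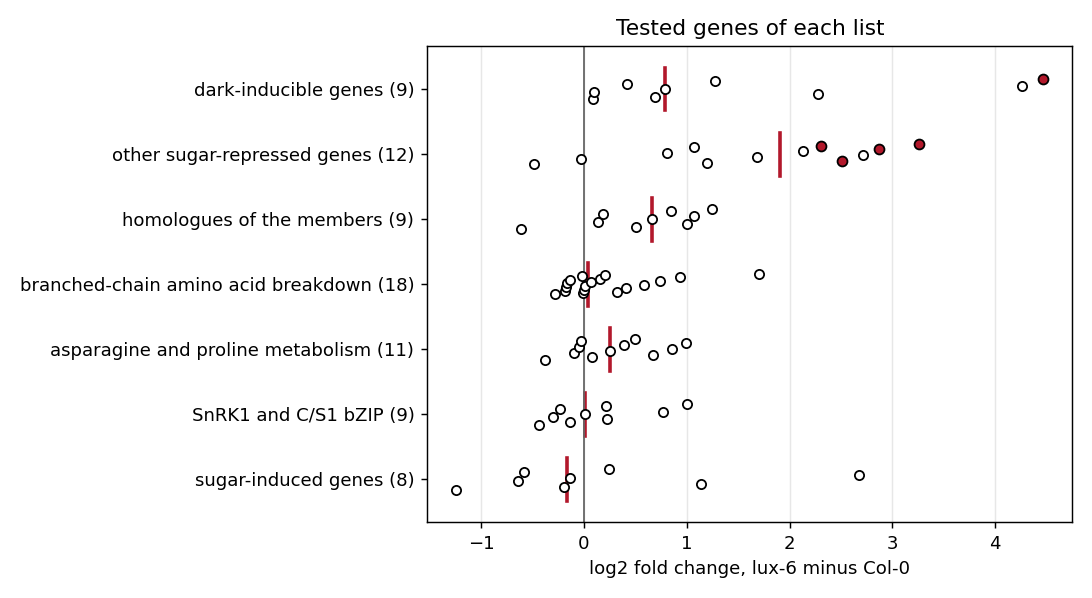
Log2 fold change of lux-6 minus Col-0 for each tested gene of the lists, with the number tested in brackets, red filled points for genes past the test and a red bar at each median. The median is 0.79 for the dark-inducible genes, 1.91 for the other sugar-repressed genes and between -0.17 and 0.67 for the rest.

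By the distance between mean-centred log2(FPKM + 1) profiles over the 4 libraries, the genes nearest to ASN1 were WRKY40, LCR67 and AT2G15010 (distances 0.484, 0.498 and 0.559). Those nearest to SEN1 were WRKY40, AT4G27654 and AT1G19380 (0.375, 0.489 and 0.518). WRKY40 (AT1G80840) was at 138 and 90.3 FPKM in lux-6, against 9.57 and 3.14 FPKM in Col-0 (log2 fold change 4.09, limma adjusted p = 0.0658). These distances describe 4 libraries and carry no test.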

How the data were processed

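The authors deposited a table of FPKM for each library, a unit named in the file headers. Per the submitters' processing notes, TopHat2 2.0.12 and TAIR10 were used, with no role stated. The sources used here do not state the counter, the gene lengths, any filters or the use of strand. RefSeq TAIR10.1 had an entry for 97.7% of the IDs and gave names, lengths and promoter windows. DIN10, DIN3, DIN4 and ASN1 overlap an antisense gene by 82 bases or fewer.

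Limma 3.58.1 in R 4.3.3 was fitted to log2(FPKM + 1) for 19592 genes, two-sided, and adjusted over all of them. The residual degrees of freedom were 2. Fold changes are lux-6 minus Col-0 and understate changes of low genes. Fragments were worked back from FPKM, with whole numbers within 0.002 for 82.9% of genes above 0. For ASN1, DIN10 and DRM1 they were estimated from annotated lengths. The fits were also run on simulated libraries that all had a small spread, meant to match the lux-6 pair. That run does not cover the wider spread of the Col-0 pair, so nothing is concluded from it. Named genes were the members, LUX, the genes past the test in each list (otherwise up to 2 with the smallest p) and those nearest in profile. ASN2, ASN3, DRM2, STR16, STR18, RS5, TPS11, FLZ6, FLZ10, CHS, DFR, PAP1, BCE1A1, BCE1A2, BCDHB1, P5CS1, KIN10, PMI1 and the C-group bZIP genes were added after their values were seen. Members and lists were chosen with earlier results of these data known.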

Additional observations from a re-analysis of the deposited data

How the results depend on the processing

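With 2 libraries per genotype, counts of calls moved with most choices, while the members' median log2 fold change stayed between 0.73 and 1.03 under all 11 alternatives. With a pseudocount of 0.1, and likewise with no filter on low values, 0 of all tested genes passed higher or lower, as did 0 members and 0 other sugar-repressed genes. ASN1 then had adjusted p = 0.0958 and 0.109. With a mean of at least 5 FPKM, 97 genes passed higher and 3 lower, with organelle genes removed 95 and 3, with median-of-ratios scaling 95 higher, and with limma-voom on fragments 87 and 3. Median-of-ratios scaling called 1 sugar-induced gene. The replicate block gave 332 higher and 8 lower, 3 members (ASN1, SEN1 and DIN10), 7 other sugar-repressed genes and 1 sugar-induced gene. The deviations of same-numbered libraries correlated at -0.0255 and the labels do not pair them, so the block rests on a shared number alone.

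Leaving out 1 library gave 0 to 4244 genes called higher and 0 to 2374 lower, with 0 to 6 members higher and 0 to 1 lower (BGLU30). The range of genes called was 0 to 11 for the other sugar-repressed genes, 0 to 4 for SnRK1 and bZIP genes, 0 to 5 for branched-chain amino acid breakdown, for asparagine and proline metabolism and for sugar-induced genes, and 0 to 8 for homologues. The fits without a lux-6 library called no gene, with 793 and 813 genes higher at an unadjusted p under 0.05, and the fit without Col-0 replicate 2 also called 0 genes of branched-chain amino acid breakdown and of asparagine and proline metabolism. Fits with 1 Col-0 library take their spread from the close lux-6 pair and assume that the lone library varies like it, so more calls there are not stronger evidence. BGLU30 ranged from -0.97 to 1.15 and DIN9 from -0.038 to 0.23 with 1 library left out. BGLU30 reversed to -0.0046 without lux-6 replicate 1 and to -0.97 without Col-0 replicate 1, and DIN9 to -0.038 without lux-6 replicate 1; the cause was not tested. The low depth of ASN1 in Col-0, an estimated 40 and 7 fragments, leaves the size of its fold change uncertain. Its log2 value was 4.47 with a pseudocount of 1, 5.74 with 0.1 and 5.997 with limma-voom.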
